A study of Mus musculus with 12 samples.

Results

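The radial glia and neural stem markers described here are 7 genes, *Nes*, *Vim*, *Fabp7*, *Prom1*, *Hopx*, *Msi1* and *Msi2*, read by symbol from the 24525 gene rows of the count tables. The rule lists them by name as known markers and uses no measured value, and all 7 passed the filter on low counts, which left 13112 genes to test. The libraries are RNA-seq of fragmented mRNA (input) from neural stem/progenitor cells (NSPCs) grown as neurospheres, free-floating balls of dividing cells that include stem cells and more committed progenitors. NSPCs came from the brains of C57BL/6 embryos at E14.5 and were kept to passage P1 with EGF and bFGF. The genotypes are wild type and Ythdf2-/-, with 3 input libraries each, which the study describes as biological replicates. Ythdf2 is a cytoplasmic protein that binds N6-methyladenosine (m6A) in mRNA and promotes its decay. In Ythdf2-/- embryos the stretch holding the gene's first exon was removed by a ubiquitously expressed Cre and bred to homozygosity, so every cell of the embryo lacked it. Cultures of both genotypes otherwise received no treatment. How many embryos gave each culture is not given in the sources used here, and the m6A-IP libraries of the series were not analysed here.

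Radial glia are the stem cells of the developing cortex. Their cell bodies line the ventricle and a long process reaches the surface of the brain, and they divide to give neurons, basal progenitors and later glia. *Nes* encodes nestin, the intermediate filament protein classically used to mark neural stem cells, and *Vim* encodes vimentin, which assembles with it. *Fabp7* encodes brain lipid-binding protein, a fatty acid carrier of radial glia. *Prom1* encodes prominin-1 (CD133), a membrane glycoprotein of the apical surface that also occurs on ependymal and some glial cells. *Hopx* encodes a small homeodomain protein without DNA-binding ability of its own, found in outer radial glia and quiescent adult stem cells. *Msi1* and *Msi2* encode the Musashi RNA-binding proteins, which control translation of their target mRNAs in neural progenitors.

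The 6 libraries held 11029827 to 13185778 counted reads. *Ythdf2* itself had 71.9, 73.3 and 91.4 CPM (read counts per library size, scaled by edgeR's TMM factors) in wild type and 11.7, 14.7 and 11.1 in Ythdf2-/-, so the knockout libraries lay below all wild-type libraries (log2 fold change -2.66, SE 0.183, edgeR adjusted p = 0.0547, and -2.54 with adjusted p = 0.0203 without wild-type replicate 3). Wild-type replicate 3 stood apart. Its mean Spearman correlation with the other 5 libraries was 0.9, where the other libraries had 0.962 to 0.97, and 68.3% of all tested genes lay outside the range of the other 5 libraries in it. *Mki67*, a marker of cycling cells, had 9.98 CPM there and 554 to 698 in the other 5 libraries. The comparison of each marker, and of each gene list as a whole, is therefore given with and without this library.

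Start regions of 3 markers are shown because these genes have a single annotated start and form the abundant end of the list. The 250 bases before the start are given 5′ to 3′ on the gene's own strand from RefSeq on GRCm38.p6, the assembly also called mm10. *Nes* lies on chr3:87970843-87971092 (plus strand), *Vim* on chr2:13574061-13574310 (plus strand) and *Fabp7* on chr10:57784673-57784922 (plus strand). Capitals mark matches, on either strand, to 4 short motifs. The GC box, bound by Sp factors, was searched as GGGCGG. The box at which TATA-binding protein settles was searched as TATAAA, and the box of nuclear factor Y by its name alone, CCAAT. The core motif of Rbpj, the DNA-binding partner of Notch, was searched as TGGGAA.
Nes: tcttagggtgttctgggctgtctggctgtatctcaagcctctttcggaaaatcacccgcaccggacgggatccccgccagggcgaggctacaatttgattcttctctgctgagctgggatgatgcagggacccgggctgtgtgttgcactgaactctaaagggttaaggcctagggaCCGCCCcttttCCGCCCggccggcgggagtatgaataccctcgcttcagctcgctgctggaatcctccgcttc
Vim: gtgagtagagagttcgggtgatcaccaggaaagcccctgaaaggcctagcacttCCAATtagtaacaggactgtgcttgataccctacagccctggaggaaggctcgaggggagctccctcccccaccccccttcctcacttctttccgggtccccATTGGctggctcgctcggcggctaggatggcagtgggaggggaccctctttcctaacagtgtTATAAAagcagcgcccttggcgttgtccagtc
Fabp7: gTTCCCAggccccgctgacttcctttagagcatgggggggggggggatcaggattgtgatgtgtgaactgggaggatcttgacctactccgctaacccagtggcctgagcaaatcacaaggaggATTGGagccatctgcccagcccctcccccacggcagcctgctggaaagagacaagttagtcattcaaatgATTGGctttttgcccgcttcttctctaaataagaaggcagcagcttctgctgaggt
The *Nes* window held 2 GC boxes, at 73 to 68 and 62 to 57 bases before the start, and GC boxes occurred in 32.7% of 32851 start windows of the same length over the genome. *Vim* held a TATA box at 32 to 27 bases before the start, a motif of 12.4% of windows, and 2 CCAAT boxes, a motif of 33.8% of windows. *Fabp7* held 2 CCAAT boxes and an Rbpj core at 249 to 244 bases, a motif of 21.6% of windows. Of the other markers, *Prom1*, *Hopx* and *Msi2* had windows in the table and *Msi1* had none. No window of a marker held the Sox core (ACAAAG, 16.5% of windows) or the POU octamer (ATGCAAAT, 1.6% of windows). These matches describe letters only.

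The markers spanned a wide range of abundance. Per length, as CPM divided by the gene's length in kilobases (RPKM, computed from the counts), *Fabp7* was highest at 2354 ± 1174 in wild type and 2597 ± 516 in Ythdf2-/- (SD, n = 3 each). *Vim* followed at 1133 ± 311 and 1122 ± 463 RPKM, and *Nes* at 137 ± 82 and 160 ± 39.9 RPKM. *Msi2* had 40.5 ± 13.2 and 43.1 ± 2.55 RPKM, and *Msi1* had 23.3 ± 12.8 and 24.3 ± 3.12 RPKM. *Hopx* had 7.69 ± 1.65 and 4.7 ± 1.24 RPKM, and *Prom1* was lowest at 3 ± 2.26 and 0.553 ± 0.185 RPKM. This order was the same in 5 of the 6 libraries. In the remaining library, wild-type replicate 3, *Msi2* (55.6 RPKM) stood above *Nes* (43.1 RPKM), and these neighbours also overlapped in range over the libraries. The ranges of *Fabp7* (998 to 3162 RPKM) and *Vim* (783 to 1655 RPKM) overlapped too, although *Fabp7* was the higher in every library. *Msi2* and *Msi1* overlapped between 31.5 and 38.1 RPKM, while within each library *Msi2* stood 1.46 to 2.11 times above *Msi1*. The length used for *Msi1* was 1551 bases, where its longest coding transcript has 3133 bases. The RPKM of *Msi1*, that overlap and that ratio depend on this choice. *Hopx* (3.27 to 8.76 RPKM) and *Prom1* (0.352 to 5.61 RPKM) overlapped as well, with *Hopx* above in each library.

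The 7 markers together took a share of all reads of 0.626%, 0.587% and 0.288% in the wild-type libraries, in replicate order, and of 0.457%, 0.637% and 0.517% in the knockout libraries. *Nes*, *Vim* and *Fabp7* supplied 84.7% of those reads in wild-type replicate 3 and 92.4% to 96.1% elsewhere. The share in wild-type replicate 3 was the lowest of the 6. The libraries are bulk samples, in which fewer cells of a type and less RNA per cell cannot be told apart.

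The comparison between genotypes asks whether the stem cell markers differed in mRNA level without Ythdf2. By edgeR's quasi-likelihood test 4 markers were higher and 3 lower in Ythdf2-/-, and 0 of the 7 passed an adjusted p of 0.05 (Benjamini-Hochberg over all tested genes), as did 0% of all genes. The smallest adjusted p among the markers was 0.999. At an unadjusted p under 0.05 the test took 1 of 7, *Prom1*, beside 3.63% of all genes. *Prom1* was also the 1 marker past a 1.5-fold difference with that p, which 2.33% of genes reached. Both limits together were met by 2 markers with DESeq2 (2.83% of genes), 2 with limma-voom (2.08%) and 3 with limma-voom with sample quality weights (8.31%). DESeq2 gave 1 of 7 markers an adjusted p under 0.05, again *Prom1*, beside 0.236% of genes, and limma-voom with sample quality weights gave 1 of 7, *Prom1*, beside 1.15% of genes. The levels of 2 markers, *Prom1* and *Hopx*, did not overlap between genotypes and were lower in Ythdf2-/-, as were 4.92% of all genes. On the deposited FPKM values, where *Prom1* and *Hopx* were mostly at 0, *Msi2* was the 1 marker without overlap and was higher in Ythdf2-/-, as were 5.64% of genes. The median log2 fold change was 0.06 over the markers and -0.01 over all tested genes.

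Leaving out wild-type replicate 3 changed several of these counts. *Prom1*, *Hopx*, *Msi1* and *Msi2* had an unadjusted p under 0.05 by edgeR, *Prom1* as before, 4 of 7 beside 16.6% of all genes, and the same 4 did not overlap between genotypes, beside 38.9% of genes in either direction. *Prom1* and *Hopx* were lower and *Msi1* and *Msi2* higher in Ythdf2-/-. *Prom1*, *Hopx* and *Msi1* also passed a 1.5-fold difference with that p, 3 of 7 beside 5.37% of genes. The log2 fold changes of *Nes* and *Fabp7* turned from above to below 0. None of the 7 passed the adjusted threshold, which 0.0151% of genes passed, and the smallest adjusted p among the markers was 0.168. The median log2 fold change became -0.22 over the markers and 0.01 over all genes.

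**Figure D1:**
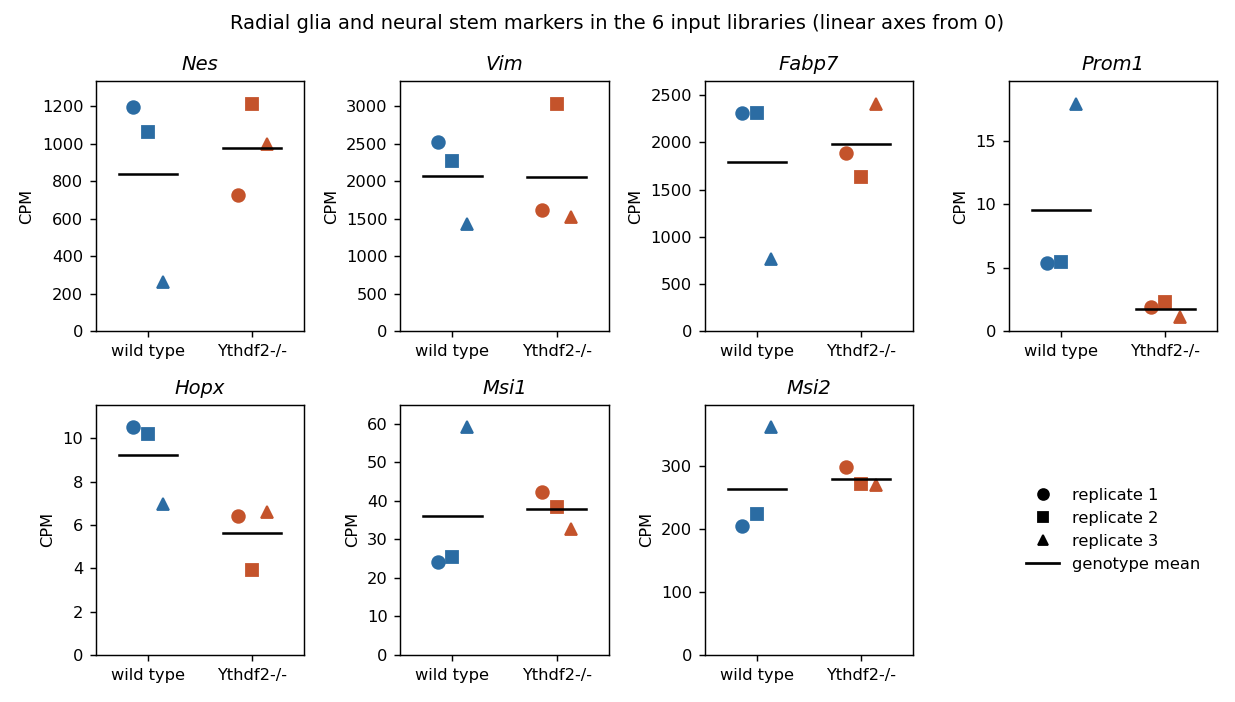
Level of each marker in every input library, in CPM on linear axes that start at 0. Points are single libraries, with the symbol giving the replicate number, and bars are genotype means over 3 libraries. For *Prom1* all 3 Ythdf2-/- points lie at or under 2.3 CPM and all wild-type points at or above 5.39 CPM, while wild-type replicate 3 is the lowest point for *Nes* and *Fabp7* and the highest for *Msi1* and *Msi2*.

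The filament genes and *Fabp7* were abundant in both genotypes, and their spread between libraries was larger than the difference between genotype means. *Nes* (chromosome 3, 87971093 to 87980451, plus strand, 4 exons) had 1194, 1060 and 264 CPM in wild type, in replicate order, and 725, 1212 and 998 CPM in the Ythdf2-/- replicates. The low value of 264 CPM rested on 2887 reads, so counting error was small. Wild type averaged 839 ± 502 CPM and Ythdf2-/- 978 ± 244 CPM (SD, n = 3 each), and the groups overlapped. The log2 fold change was 0.22 (SE 0.548, 95% interval -1.10 to 1.55, edgeR adjusted p = 0.999). It was -0.20 when wild-type replicate 3 was left out, with an interval of -0.76 to 0.35.

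*Vim* (chromosome 2, 13574311 to 13582826, plus strand, 9 exons) had 2525, 2274 and 1436 CPM in wild type and 1618, 3036 and 1518 CPM in Ythdf2-/-. The values of one Ythdf2-/- library lay above and those of the other 2 below wild-type replicates 1 and 2. The means were 2078 ± 571 and 2057 ± 849 CPM, with a log2 fold change of -0.01 (SE 0.365, interval -0.90 to 0.87). Leaving out wild-type replicate 3 gave a log2 fold change of -0.22 (interval -1.02 to 0.57).

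*Fabp7* (chromosome 10, 57784923 to 57788450, plus strand, 4 exons) had 2313, 2307 and 760 CPM in wild type and 1890, 1638 and 2409 CPM in Ythdf2-/-. Wild-type replicates 1 and 2 lay within the range of the knockout libraries, and replicate 3 far below it. The means were 1793 ± 895 and 1979 ± 393 CPM, and the log2 fold change was 0.14 (SE 0.445, interval -0.93 to 1.22). With 2 wild-type libraries, replicate 3 left out, it was -0.22 (interval -0.71 to 0.26). The abundant markers did not keep a fixed ratio: *Vim* stood 5.08 to 8.37 times above *Nes* in RPKM in 5 libraries and 18.1 times in wild-type replicate 3, and *Fabp7* stood 1.27 to 3.82 times above *Vim* over the 6 libraries.

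*Prom1* showed the largest difference of the 7 markers. The gene (chromosome 5, 43993621 to 44102047, minus strand) has 8 curated transcripts of 22 to 28 exons. It had 5.39, 5.42 and 17.9 CPM in wild type and 1.88, 2.3 and 1.13 CPM in Ythdf2-/-, from 63, 71 and 196 reads and 22, 31 and 14 reads. All 3 knockout libraries lay below all 3 wild-type libraries. Ythdf2-/- averaged 1.77 ± 0.592 CPM, which was 18.4% of the wild-type mean of 9.58 ± 7.24 CPM (SD, n = 3 each) and 32.7% of the mean of wild-type replicates 1 and 2. The log2 fold change was -2.43 (SE 0.606, interval -3.89 to -0.96), with an unadjusted p of 0.00638 and an adjusted p of 0.999 by edgeR. An exact two-sided permutation test of the 6 log2 CPM values gave p = 0.1, the smallest that 3 against 3 libraries allow. Adjusted p was 0.0368 by DESeq2 and 0.0474 by limma-voom with quality weights, and 1 by limma-voom without weights. The log2 fold change without wild-type replicate 3 was -1.60 (SE 0.342, interval -2.43 to -0.78), with an adjusted p of 0.168 by edgeR. The direction was the same in each of the 15 fits that could test *Prom1*, with log2 fold changes of -2.71 to -1.60 and adjusted p of 0.0368 to 1.

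*Hopx* (chromosome 5, 77086986 to 77115123, minus strand, 2 to 3 exons) was also a low-count gene, with 53 to 134 reads per library. It had 10.5, 10.2 and 6.96 CPM in wild type and 6.4, 3.92 and 6.6 CPM in Ythdf2-/-. The groups did not overlap, but wild-type replicate 3 stood next to the highest knockout library. The means were 9.24 ± 1.98 and 5.64 ± 1.49 CPM, and the log2 fold change was -0.71 (SE 0.306, interval -1.45 to 0.03, edgeR adjusted p = 0.999). It moved to -0.88 without wild-type replicate 3 (interval -1.53 to -0.23, adjusted p = 0.226). Over 15 fits it ran from -0.88 to -0.50, with adjusted p between 0.0604 and 1.

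The Musashi genes were higher in every Ythdf2-/- library than in wild-type replicates 1 and 2, and lower than in wild-type replicate 3. *Msi1* (chromosome 5, 115359059 to 115455698, plus strand, 10 to 15 exons) had 24, 25.3 and 59 CPM in wild type and 42.2, 38.4 and 32.6 CPM in Ythdf2-/-. The groups overlapped only through wild-type replicate 3. The means were 36.1 ± 19.8 and 37.7 ± 4.84 CPM, and the log2 fold change was 0.06 (SE 0.373, interval -0.84 to 0.97). Leaving out wild-type replicate 3 made it 0.61 (SE 0.144, interval 0.26 to 0.96, edgeR adjusted p = 0.18). Of the gene's 4292 exon bases, 74 overlap the gene 4930401G09Rik on the opposite strand, and whether counting used strand is not given in the sources used here.

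*Msi2* (chromosome 11, 88339382 to 88718306, minus strand, 8 to 15 exons) showed the same arrangement at a higher level. It had 204, 223 and 361 CPM in wild type and 299, 271 and 270 CPM in Ythdf2-/-. The means were 263 ± 85.5 and 280 ± 16.6 CPM, with a log2 fold change of 0.09 (SE 0.239, interval -0.49 to 0.67). It became 0.39 once wild-type replicate 3 was left out (SE 0.106, interval 0.13 to 0.64, edgeR adjusted p = 0.202). With quality weights, limma-voom gave adjusted p of 0.0546 for *Msi1* and 0.0638 for *Msi2*. That fit kept all libraries but gave wild-type replicate 3 little weight (0.0957), so it is close to leaving that library out. *Msi2* had the smallest spread of the markers among knockout libraries, with a coefficient of variation of 5.92%, against 41.3% for *Vim*.

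**Figure D2:**
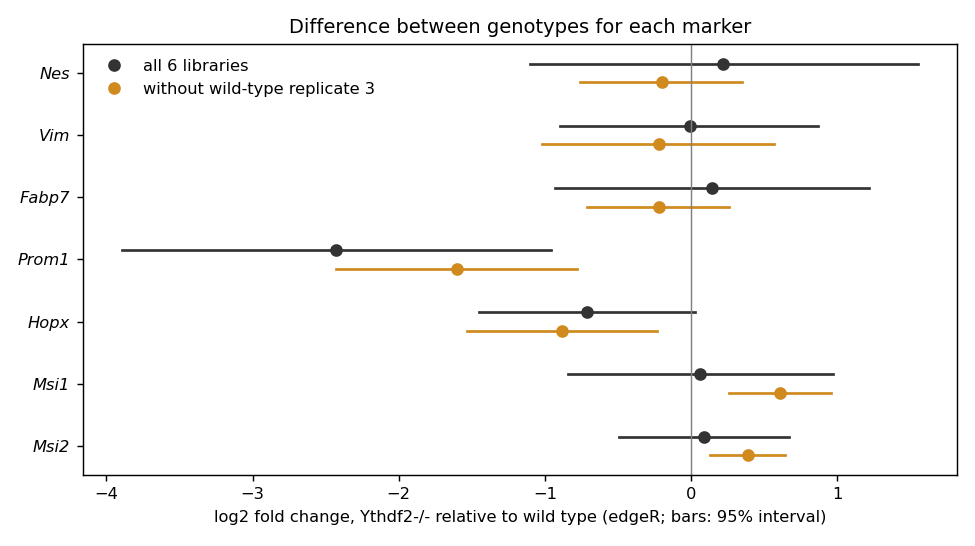
Log2 fold change of each marker, Ythdf2-/- relative to wild type, by edgeR, with bars for the 95% interval. Dark points use all 6 libraries and orange points leave out wild-type replicate 3. *Prom1* lies below 0 with both intervals, and the intervals of *Hopx*, *Msi1* and *Msi2* clear 0 after that library is left out.

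Wild-type replicate 3 moved the markers in opposite directions. Relative to the mean of the other 5 libraries it was lower by log2 values of -1.95 for *Nes*, -1.46 for *Fabp7* and -0.56 for *Vim*. It was higher by 2.65 for *Prom1*, 0.89 for *Msi1* and 0.52 for *Msi2*. *Hopx* differed by -0.03 and lay inside the range of the other libraries. Thus 6 of 7 markers were outside that range, beside 68.3% of all genes, and the median absolute deviation of all genes was 0.44. What set this library apart was not tested.

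**Figure D3:**
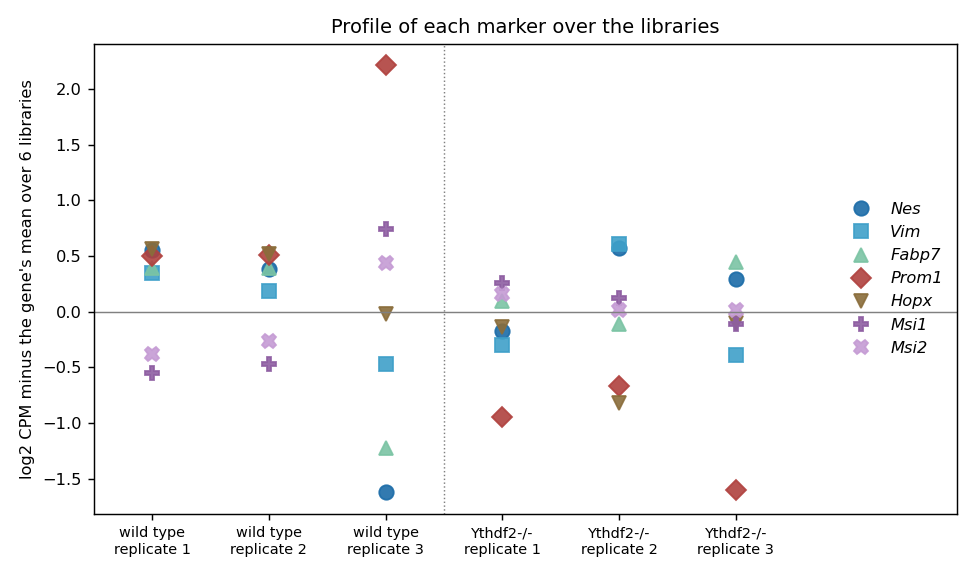
Profile of each marker over the 6 libraries, as log2 CPM minus the gene's own mean. In wild-type replicate 3 *Prom1*, *Msi1* and *Msi2* lie above 0 and *Nes*, *Fabp7* and *Vim* below it, while *Hopx* lies near 0.

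As a description over the 6 libraries, likeness was measured by the root mean square difference of these centred log2 CPM values. Of the 21 pairs of markers, *Msi1* and *Msi2* were most alike at 0.184, followed by *Nes* and *Fabp7* at 0.354, and *Nes* and *Prom1* were least alike at 1.85. Among all tested genes *Nes* was most like *Wdr90* (0.0842) and *Creb5* (0.119), and *Vim* most like *Nme4* (0.0817) and *Fgfrl1* (0.0819). *Fabp7* was most like *Atp5b* (0.0493), a subunit of mitochondrial ATP synthase, and *Cdh4* (0.055), a cadherin of the nervous system. *Prom1* was most like *Ly6h* (0.182) and *Adam11* (0.287), and *Hopx* most like *St3gal4* (0.0892) and *Sept4* (0.133). *Msi1* was most like *Dennd4a* (0.043) and *B3gat1* (0.0708), and *Msi2* most like *Scd4* (0.0315) and *Zer1* (0.0416). *Prom1* had the least close neighbours of the 7.

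Other genes of radial glia and neural stem cells were compared as a list of 26, all of which were tested. By edgeR 15 were higher and 11 lower in the knockout, and their log2 fold changes had a median of 0.02. An unadjusted p under 0.05 was reached by 1, *Sox3* (0.57, SE 0.228), a transcription factor of neural progenitors named after its values were seen, beside 3.63% of all genes, and 0 passed the adjusted threshold. With wild-type replicate 3 left out, 21 were higher and 5 lower with a median of 0.23, and 3 reached that unadjusted p, *Sox2* (0.30), *Ednrb* (0.57) and *Tnc* (-0.81), the last also named after its values were seen, beside 16.6% of all genes in that fit. Its most abundant genes were *Ptprz1*, a receptor phosphatase of radial glia (log2 fold change 0.19, SE 0.226), and *Slc1a3*, the glutamate transporter GLAST (0.34, SE 0.39). They were followed by *Ednrb*, the endothelin receptor type B (0.18, SE 0.349), and *Dbi*, an acyl-CoA-binding protein (-0.16, SE 0.226). The stem cell factor *Sox2*, named after its values were seen, had 349, 316 and 551 CPM in wild type and 425, 426 and 378 in Ythdf2-/-, the same arrangement as the Musashi genes. *Nes*, *Sox2*, *Slc1a3* and *Fabp7* were thus each counted in all 6 libraries.

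Relatives of the markers included one gene with a large difference. Of 11 genes of the intermediate filament, fatty acid binding and prominin families, 6 passed the filter, 2 higher and 4 lower in the knockout. Their median was -0.40 on the log2 scale, with 0 adjusted calls. The 1 gene with an unadjusted p under 0.05, a p of 3.63% of all genes, was *Gfap*, the filament protein of astrocytes, with 437, 625 and 3046 CPM in wild type and 127, 87.7 and 5.55 CPM in Ythdf2-/-. Its groups did not overlap, its log2 fold change was -4.22 (SE 1.3, edgeR adjusted p = 0.999), and without wild-type replicate 3 it was -2.85. *Fabp5*, the epidermal fatty acid-binding protein, had 816, 874 and 1165 CPM in wild type and 782, 548 and 678 in Ythdf2-/- (log2 fold change -0.51, SE 0.223), also without overlap, where 4.92% of all genes were lower without overlap. *Ina* and *Synm*, further filament genes, had log2 fold changes of -0.93 (SE 0.609) and -0.29 (SE 0.387). Left without that library, the 6 genes split into 4 higher and 2 lower, with a median of 0.05 and *Gfap* again the 1 gene at an unadjusted p under 0.05, beside 16.6% of all genes. Of 5 genes for Musashi-bound messages and the Numb relative *Numbl*, 1 was higher and 4 lower, 0 had an unadjusted p under 0.05, and the median was -0.04. Leaving out wild-type replicate 3 gave 2 higher and 3 lower, 1 such p (16.6% of all genes) and a median of -0.02. *Cdkn1a*, the cell cycle inhibitor p21, had a log2 fold change of -0.03 and without wild-type replicate 3 of -0.43 (edgeR adjusted p = 0.174). *Jag1*, a Notch ligand, had 0.40 and -0.02.

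Markers of other cell types were followed because several of the 7 genes also occur outside radial glia. Summed over 13 oligodendrocyte lineage markers, the level was 1822, 1812 and 5133 CPM in wild type and 2006, 2241 and 2025 in Ythdf2-/-. Of 11 tested, 3 were higher and 8 lower, 6 had an unadjusted p under 0.05, beside 3.63% of all genes, and the median was -1.10. With wild-type replicate 3 left out 4 were higher and 7 lower, 1 had such a p, beside 16.6% of all genes, and the median was -0.17. That gene was *Cspg4*, named after its values were seen, and it was higher in Ythdf2-/- (0.41). It was also among the 6 with all libraries (0.44). The transcription factors *Olig1* and *Olig2* had log2 fold changes of 0.48 (SE 0.255) and 0.12 (SE 0.206). *Mbp*, the myelin basic protein gene, named after its values were seen, had 573 CPM in wild-type replicate 3 and 1.21 to 8.85 CPM in the other libraries. Members of the list did not move alike: *Olig1* and *Olig2* had their lowest levels in that library, 547 CPM against 874 to 1250 and 324 CPM against 417 to 514. The library with the highest oligodendrocyte sum was thus the one with the highest *Prom1* level, and it also had the highest astrocyte, neuronal and mesenchymal sums and the highest *Gfap* level. Members of those lists did not move alike either. *Fgfr3* (astrocyte, 79.8 CPM) and *Gap43* (neuronal, 55.8 CPM), both named after their values were seen, were lowest there. So was *Foxc1* (mesenchymal, 9.24 CPM), while *Pdgfrb* alone had 31.8 of the mesenchymal 47.4 CPM. The part of any of these cell types in the *Prom1* difference was not tested.

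Over 13 astrocyte markers the sum was 6349, 7937 and 15386 CPM in wild type and 11156, 4108 and 6677 in Ythdf2-/-, with 5 higher, 8 lower, 2 at an unadjusted p under 0.05 (3.63% of all genes) and a median of -0.10. Leaving out wild-type replicate 3 gave 7 higher, 6 lower, 2 at that p (16.6% of all genes) and a median of 0.02. *Apoe*, the main brain apolipoprotein, had a log2 fold change of -0.10 (SE 0.526) with all libraries and 0.36 (SE 0.478) without that one, and *Sparcl1* of -0.87 (SE 0.707) and -0.68 (SE 0.768). Over 16 neuronal markers the sum was 1465, 1492 and 2483 CPM in wild type and 1577, 1865 and 1616 in Ythdf2-/-. Of 12 tested, 3 were higher and 9 lower, 3 had an unadjusted p under 0.05, beside 3.63% of all genes, and the median was -0.59. With wild-type replicate 3 left out 7 were higher and 5 lower, 2 had such a p, beside 16.6% of all genes, and the median was 0.17. Those 2 were *Mapt*, higher, and *Stmn2*, lower (-2.33), a gene with 1 to 19 reads per library that is named after its values were seen. *Map2* and *Mapt*, microtubule proteins of neurons, had log2 fold changes of -0.02 and 0.14, and of 0.16 (SE 0.13) and 0.64 (SE 0.148, edgeR adjusted p = 0.178) without that library. *Dcx*, a marker of young neurons, had 10, 13.1 and 315 CPM in wild type and 8.36, 11.3 and 9.9 in Ythdf2-/-, and *Eomes*, a marker of basal progenitors, stayed at or under 1.04 CPM in every library and was not tested.

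The 10 proliferation genes were low in wild-type replicate 3. Their sum was 2979, 2653 and 133 CPM in wild type and 2010, 2369 and 2231 in Ythdf2-/-. With all libraries 7 were higher and 3 lower, 0 had an unadjusted p under 0.05 and the median was 0.16. After wild-type replicate 3 was left out, 0 were higher and 10 lower, 6 had an unadjusted p under 0.05, beside 16.6% of all genes, 0 passed the adjusted threshold, and the median was -0.42. *Mki67* and *Top2a* had log2 fold changes of 0.48 (SE 1.15) and 0.23 (SE 1.22) with all libraries, and of -0.10 (SE 0.145) and -0.35 (SE 0.172) without that one. *Nes*, *Vim* and *Fabp7* had their lowest wild-type levels in the library with the lowest proliferation sum, and the part of cell division in their levels was not tested.

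Markers of non-neural and ventricular lining types had low summed levels, which do not measure numbers of cells. Summed ependymal markers lay at 30.4 to 33.6 CPM in every library, most of it *Foxj1* at 25.6 to 28.8 CPM, with *Tmem212* and *Pifo* at 0 throughout. Of 4 tested ependymal genes 3 were higher and 1 lower, with *Foxj1* at -0.06 and *Rsph1* at 0.33, and without wild-type replicate 3 the split was 1 higher and 3 lower. Myeloid markers summed to 5.88 to 9.01 CPM with *C1qa* and *C1qb* at 0, and the 3 tested, among them *Cd68* (-0.66) and *Mpeg1* (-0.25), were all lower, with and without that library. Endothelial markers summed to 1.28 to 4.02 CPM with *Cldn5* at 0 and *Kdr* the 1 tested gene (-0.32, and -0.54 without that library, when *Tek* was also tested and lower), and *Tek* stayed at or under 0.856 CPM. Mesenchymal and pericyte markers summed to 14.2 to 47.4 CPM, highest in wild-type replicate 3, and of 5 tested 1 was higher (*Foxc1*, 0.45) and 4 lower (*Pdgfrb*, -2.50, SE 1.6), against 2 higher and 3 lower without it, where *Pdgfrb* was at 0.91. No gene of any list passed an adjusted p of 0.05 by edgeR, with or without wild-type replicate 3. At an unadjusted p under 0.05 the ependymal, myeloid, endothelial and mesenchymal lists had 0 genes with all libraries, and without wild-type replicate 3 the mesenchymal list had 1, *Acta2* (-1.41), named after its values were seen, beside 16.6% of all genes.

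**Figure D4:**
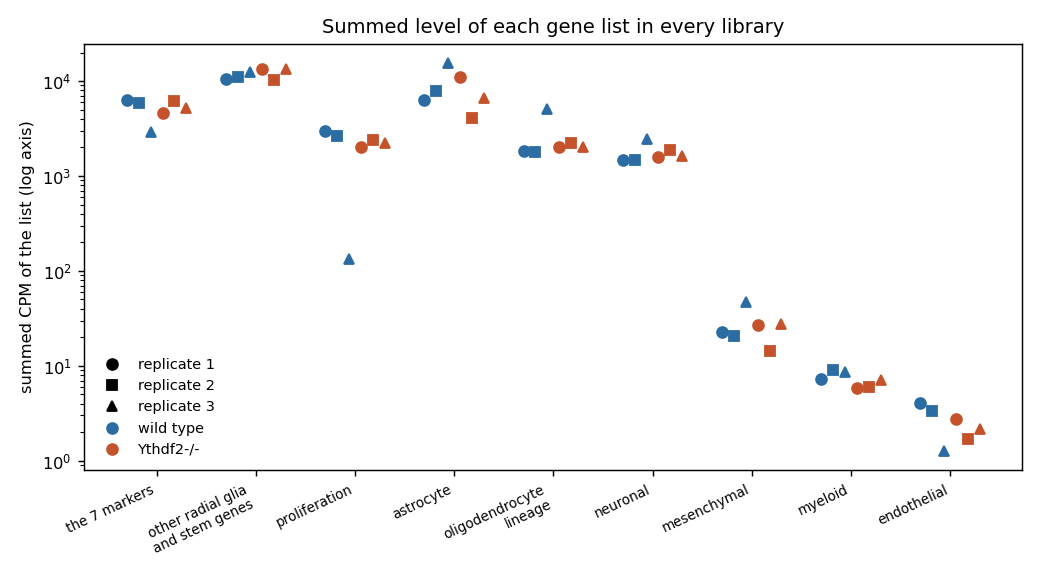
Summed CPM of gene lists in each library, on a log axis, with colour for genotype and symbol for replicate number. Wild-type replicate 3 is the lowest point for the 7 markers (2905 CPM) and the proliferation genes (133 CPM) and the highest for the oligodendrocyte list (5133 CPM), whereas the list of other radial glia and stem genes runs from 10259 to 13503 CPM.

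Because Ythdf2 binds m6A, the letters GGACT, the most common core of m6A sites, were counted on the sense strand of each marker's longest coding transcript in GENCODE M21. *Nes* held 11 (1.8 per kilobase) and *Prom1* 8 (1.96 per kilobase), which placed them at the 84.8th and 88.6th percentile of 12288 tested genes with a transcript. *Msi1* held 4 (1.28 per kilobase), *Fabp7* 1 (1.14), *Vim* 2 (0.912), *Hopx* 1 (0.793) and *Msi2* 5 (0.777), around the median of 1.04 per kilobase. Only 6.57% of genes held none. A match is not a methylated site, and methylation was not analysed here.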

How the data were processed

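Input RNA-seq of 3 wild-type and 3 Ythdf2-/- NSPC libraries was analysed. The authors deposited, per library, a table of raw read counts per gene and a table of RSEM values. The submitters' processing notes name Bowtie2 2.2.9, RSEM 1.2.15 and featureCounts on mm10, and the study's methods describe alignment with TopHat. Counting parameters, strand included, are not given in the sources used here. The deposited estimated counts summed to 1.97% to 2.4% of the raw counts, so the deposited FPKM values served as an alternative only, and the deposited TPM values and gene lengths were not used for tests. At the deposited estimated counts *Prom1* and *Hopx* were at 0 in 5 libraries each, *Msi1* had 0 to 2 per library and *Msi2* 1 to 12.

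Counts were scaled by TMM, filtered with filterByExpr and tested by edgeR 4.0.16 (quasi-likelihood, robust, genotype alone) in R 4.3.3, with Benjamini-Hochberg adjustment over 13112 genes. CPM used the TMM factors, and RPKM divided CPM by the median over libraries of the deposited RSEM gene length. Single genes were also compared by exact permutation of log2 CPM, SciPy 1.17.1 gave the quantiles for the intervals, and the scripts were tested on simulated data. Alternatives were DESeq2 1.42.0, limma 3.58.1 (voom, with and without sample quality weights, and log2 of FPKM plus 1 or 0.1), RLE scaling, library totals, other filters, a replicate block and leaving out each library. With 3 libraries per genotype, p-values measure the spread between these samples, and counting error at this depth matters mainly for *Prom1* and *Hopx*.

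The markers were listed by name, and they and the 11 gene lists beside them were chosen with earlier results of these data known. Besides the 7 markers and *Ythdf2*, the text names, per marker, the 2 genes of most alike profile, the 4 most abundant genes of the stem and the relatives lists, the 2 most abundant of each other list, any gene of the stem and relatives lists past the adjusted threshold, and *Gfap*, *Dcx* and *Eomes*. Other genes are marked where named, or are list members at 0 in every library. The m6A-IP libraries were not analysed here.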

Additional observations from a re-analysis of the deposited data

How the results depend on the processing

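*Prom1* and *Hopx* kept their direction under every alternative that could test them. Limma on the deposited FPKM could test neither, since fewer than 3 libraries were above 0. Markers called at an adjusted p under 0.05 numbered 0 by edgeR and 1 with DESeq2 or with quality weights, and 0 whichever library was left out. Markers past the fold and p limits numbered 1 by edgeR, 2 with DESeq2 or limma-voom, 3 with quality weights, 0 with either FPKM scale, and 1 to 3 with a library left out, the 3 without wild-type replicate 3. The markers' median log2 fold change of 0.06 became -0.39 with quality weights, 0.39 on log2(FPKM + 1), 0.40 on log2(FPKM + 0.1), both over the 5 markers that could be tested, and -0.22 to 0.12 with a library left out. Markers without overlap numbered 2 (*Prom1* and *Hopx*, lower), 1 on the deposited FPKM (*Msi2*, higher in Ythdf2-/-), and 2 to 4 with a library left out, the 4 without wild-type replicate 3. Over all genes, calls numbered 0 by edgeR, 1 with RLE scaling, no filter or at least 10 counts in every library, 31 with DESeq2, 151 with quality weights, 2 and 1 on FPKM plus 1 and plus 0.1, and 0 to 2 with a library left out.

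Direction turned for 5 markers. *Nes* went to -0.39 with quality weights and ran from -0.20 to 0.56 over left-out libraries, turning without wild-type replicate 3. *Vim* was 0.01 with library totals, 0.11 and 0.12 on the FPKM scales, and -0.40 to 0.16 over left-out libraries. *Fabp7* was -0.21 with quality weights and -0.22 to 0.37 over left-out libraries. *Msi1* was -0.89 and -1.92 (SE 0.824 and 2.05) on the FPKM scales, which rest on 0 to 2 estimated counts per library. Over left-out libraries it was -0.16 to 0.61. *Msi2* was 1.12 and 1.52 on the FPKM scales and -0.06 to 0.39 over left-out libraries. *Prom1* ran from -2.71 to -1.60 and *Hopx* from -0.88 to -0.50. The cause was not tested. The deviations of same-numbered libraries from their genotype means had correlations of -0.25, -0.24 and -0.39, and no library correlated best with its own number. Deviations within 3 libraries depend on each other, so these correlations cannot show whether the numbers pair the libraries. With a replicate block 0 markers and 0 genes were called, as without it.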
